A study of Homo sapiens with 48 samples.

Results

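Hepatocyte transcription factors were followed in 2 human cell lines after transfection of an siRNA against a transcript that lies between the genes C5 and TRAF1. The set comprised 8 listed genes, HNF4A, FOXA1, FOXA2, FOXA3, CEBPA, CEBPB, ONECUT1 and NR1H4, and a probe was a member when the array platform's annotation gave it 1 of these symbols. Of 48795 probes with values, 9 met the rule and stood for 6 of the 8 genes, among 18849 genes that the annotation names on the array. FOXA2 had 3 probes, ONECUT1 had 2, and FOXA1, FOXA3, CEBPA and CEBPB had 1 each. HNF4A and NR1H4 were not analysed here, because no probe at hand carries either symbol. All probes were kept apart.

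Huh7 cells come from a human hepatoma and THP1 cells from a leukaemia of monocytic type, so each line stands for 1 tumour-derived genotype and not for primary cells. Each received INTG, the siRNA against the intergenic transcript, or 1 of the negative control siRNAs NC1 and NC2. Every well held 300000 cells and 50 pmol siRNA in a lipid transfection reagent, which the control wells received as well, and was collected after 2 days. Every line had 4 experiments from separate passages with 2 wells per siRNA, which gave 48 Illumina bead arrays, 8 for each siRNA in each line. The first pair of experiments was run as a discovery phase and the last pair as a validation phase. Every slide of 12 arrays held a single phase of a single line, so that phase and slide, and also line and slide, cannot be told apart.

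Hepatocyte identity is held by a small network of transcription factors that bind each other's genes as well as the genes of secreted liver proteins. HNF4A and NR1H4 (FXR, the bile acid receptor) are nuclear receptors. The forkhead proteins FOXA1, FOXA2 and FOXA3 open chromatin at liver enhancers, CEBPA and CEBPB are basic leucine zipper proteins that drive metabolic and acute phase genes, and ONECUT1 (HNF6) acts in liver and bile duct development. CEBPA and CEBPB are also used outside the liver, and CEBPA is needed for the formation of myeloid cells.

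The siRNA target and the start regions of 4 members are shown, the target because every comparison turns on it and the start regions because 3 of these genes were the members that fell with INTG in Huh7, while FOXA1 did not pass the test. The INTG target has 21 bases per the labels, and its position was not mapped here. Its neighbours are TRAF1 at chr9:120902393-120929171 and C5 at chr9:120952335-121074865 in GRCh38.p14. The start regions hold the 250 bases before the start of the gene in RefSeq's GRCh38.p14 annotation. The TATA, CCAAT and Sp1 boxes and the FOXA matches found on either strand are in capitals, and each sequence is written 5′ to 3′ along the gene's strand.
INTG siRNA target: aactacgtgaagaggcctctg
CEBPA, chr19:33302535-33302784, minus strand: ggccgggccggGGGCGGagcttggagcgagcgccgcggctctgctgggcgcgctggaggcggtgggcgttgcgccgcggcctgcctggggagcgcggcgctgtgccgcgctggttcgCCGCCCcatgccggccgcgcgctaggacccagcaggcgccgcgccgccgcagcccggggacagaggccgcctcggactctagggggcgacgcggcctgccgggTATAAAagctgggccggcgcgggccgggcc
FOXA3, chr19:45864076-45864325, plus strand: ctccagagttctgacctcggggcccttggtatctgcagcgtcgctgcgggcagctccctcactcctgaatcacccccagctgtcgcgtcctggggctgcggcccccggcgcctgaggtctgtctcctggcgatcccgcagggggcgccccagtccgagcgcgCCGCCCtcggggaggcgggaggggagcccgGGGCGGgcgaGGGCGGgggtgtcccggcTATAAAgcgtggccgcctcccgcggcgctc
ONECUT1, chr15:52790337-52790586, minus strand: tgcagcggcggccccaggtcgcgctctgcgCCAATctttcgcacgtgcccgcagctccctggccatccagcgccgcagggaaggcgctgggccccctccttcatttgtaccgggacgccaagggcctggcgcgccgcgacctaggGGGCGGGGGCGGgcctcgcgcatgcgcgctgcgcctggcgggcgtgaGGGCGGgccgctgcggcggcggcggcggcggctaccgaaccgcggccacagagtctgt
FOXA1, chr14:37595250-37595499, minus strand: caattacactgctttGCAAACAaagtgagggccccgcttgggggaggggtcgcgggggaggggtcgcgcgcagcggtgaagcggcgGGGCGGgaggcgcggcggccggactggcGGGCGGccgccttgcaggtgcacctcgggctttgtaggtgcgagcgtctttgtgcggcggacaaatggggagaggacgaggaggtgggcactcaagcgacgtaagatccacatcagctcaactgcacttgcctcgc

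The search covered both strands for the TATA box in the form of TATAAA, the Sp1 box GGGCGG, the CCAAT box, TGTTTNC (FOXA), TTGCNNAA (C/EBP), ATTGAT (ONECUT) and CAAAGTCCA (HNF4). In CEBPA and FOXA3 the TATA box begins 30 bases before the start. Of 35116 start regions of that length in the annotation, 10.7% hold TATAAA, and neither ONECUT1 nor FOXA1 does in this window. The Sp1 box occurs 2 times in CEBPA, 3 times in FOXA3, 3 times in ONECUT1 and 2 times in FOXA1, against a share of 42.6% of all regions with at least 1. ONECUT1 has a CCAAT box (in 32% of regions) and FOXA1 a FOXA match 235 bases before its start (in 15.5%). C/EBP, ONECUT and HNF4 letters, held by 9.05%, 5.58% and 0.325% of regions, are not in these 4 windows. The 4 windows are rich in G and C, at 81.2% in CEBPA, 75.2% in FOXA3, 76.8% in ONECUT1 and 67.2% in FOXA1.

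Normalised signals are on the log2 scale, and a probe counted as detected on an array where its detection p-value was under 0.01. Mean signals of the arrays lay between 240.6 and 396.8 in Huh7 and between 122.2 and 478.2 in THP1, and the dimmest were the 2 INTG arrays of THP1 experiment 4. The line labels were checked against marker genes. All 8 hepatocyte markers, albumin and alpha-fetoprotein among them, were detected on all 24 Huh7 arrays, and 6 of 8 on no THP1 array. Of 7 monocyte markers with a probe, SPI1, CSF1R and FCGR1A were detected on all 24 THP1 arrays and on no Huh7 array, and ITGAM and PTPRC on 18 and 12 THP1 arrays and on no Huh7 array. CD14 and LYZ ran against the line labels, with detection on all 24 Huh7 arrays and on 16 and 22 of 24 THP1 arrays. Their mean levels were 6.76 in Huh7 and 5.85 in THP1 for CD14, and 10.26 and 7.51 for LYZ. Of 5 fibroblast markers, COL1A2 and LUM were detected on all 24 Huh7 arrays and 3 on none. Of 4 endothelial markers, PECAM1 was detected on all 24 arrays of each line and 3 on none.

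Detection of FOXA1, FOXA2, FOXA3 and ONECUT1 was limited to the hepatoma line, whereas CEBPA and CEBPB were detected in both. In Huh7 the probes of FOXA1, FOXA3, CEBPA, CEBPB, FOXA2 probe 1 and ONECUT1 probe 2 were detected on 24 of 24 arrays. ONECUT1 probe 1 was detected on 22 of 24, and the exceptions were both INTG wells of experiment 3. In THP1, CEBPA and CEBPB were detected on 24 of 24 arrays and the other 7 member probes on 0 of 24. FOXA2 probe 2 and FOXA2 probe 3 were detected on 0 of 24 arrays in both lines and were not tested.

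The FOXA2 probes thus disagreed within Huh7. The deposited signal of FOXA2 probe 1 ran from 2305 to 6310 on the Huh7 arrays, that of FOXA2 probe 2 from 48.8 to 115.9 and that of FOXA2 probe 3 from 54.2 to 135.1. The annotation ties probes 1 and 2 to the same transcript record of FOXA2 and probe 3 to another, and the reason for the disagreement was not tested. FOXA2, a factor of early endoderm and of bile acid handling in the adult liver, is described below by probe 1.

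**Figure D1:**
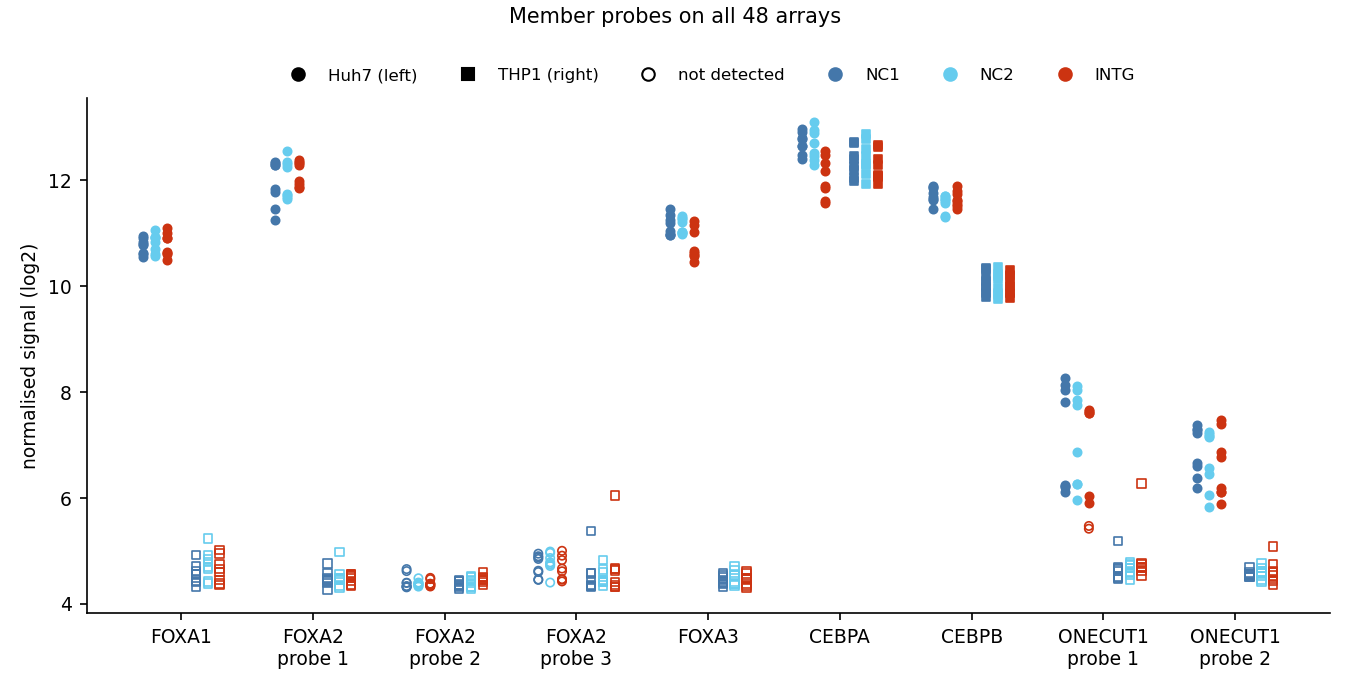
Normalised signal (log2) of the 9 member probes on all 48 arrays, with 1 point per array, circles for Huh7, squares for THP1, colours for the siRNA and open symbols where the probe was not detected. CEBPA and CEBPB are detected in both lines and the other probes in Huh7 or in neither. Heights of different probes are not comparable.

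Under the control siRNAs the forkhead factors were far higher in Huh7 than in THP1. With NC1 and NC2 averaged, the Huh7 level of FOXA1 was 10.94, 10.82, 10.67 and 10.62 with NC1 and 10.99, 10.93, 10.77 and 10.59 with NC2 in experiments 1 to 4, a mean of 10.79 ± 0.161 (SD, n = 4). Since FOXA1 was not well above background on any THP1 array, the fold is a lower bound, taken against the dimmest detected signals on those arrays (mean 5.66), and FOXA1 was at least 35.1-fold higher in Huh7. FOXA3 averaged 11.15 ± 0.178 (SD, n = 4) in Huh7 and was at least 45.0-fold higher. FOXA2 probe 1 averaged 11.99 ± 0.416 (SD, n = 4) and was at least 80.8-fold higher. These probes, and those of ONECUT1, passed the detection filter through Huh7 alone, which fixed the direction, so their levels are described without a test. The measured THP1 means behind these bounds were 4.66 for FOXA1, 4.47 for FOXA3 and 4.50 for FOXA2 probe 1.

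The bounds for ONECUT1 were smaller, and its Huh7 signals lay closer to the detection limit. Probe 1 averaged 7.14 ± 1.01 and probe 2 averaged 6.79 ± 0.541 (SD, n = 4) in Huh7 controls, at least 2.79-fold and at least 2.20-fold above THP1. CEBPB was detected in both lines, at 11.65 ± 0.146 in Huh7 and 10.06 ± 0.204 in THP1 (SD, n = 4), with no overlap between the lines. CEBPB was thus 3.01-fold higher in Huh7, a difference of 1.59 (SE 0.142; limma, adjusted p = 7.83e-06).

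CEBPA did not pass the test between the lines. Its control levels were 12.69 ± 0.257 in Huh7 and 12.39 ± 0.299 in THP1 (SD, n = 4), and the ranges over experiments overlapped. The difference was 0.30 (SE 0.187, 95% interval -0.12 to 0.73; limma, adjusted p = 0.187). It passed at 0.0413 when the wells were fitted as separate arrays and, at 0.50, with array weights (adjusted p = 0.0229). Of the 2 member probes detected in both lines, 1 was thus called higher in Huh7. Of the 15860 probes that passed the filter in either line, 30.6% were called higher there and 62.6% in either direction, shares that include probes detected in 1 line alone.

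The levels of some members also shifted between the slides of a line. From the discovery to the validation experiments the Huh7 control level of ONECUT1 probe 1 fell by 1.73 and that of ONECUT1 probe 2 fell by 0.90. FOXA2 probe 1 fell by 0.70 and CEBPA fell by 0.41, while FOXA3 moved by 0.30, FOXA1 by -0.26 and CEBPB by -0.10. These are described without a test. Among all 13878 probes tested in Huh7 the median shift was -0.02, and 5.09% fell by more than 1. In THP1 the shift was -0.47 for CEBPA and 0.23 for CEBPB. All contrasts of siRNAs below were therefore taken within experiments.

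Of the 7 member probes tested in Huh7, 3 were lower with INTG than with the controls, namely CEBPA, FOXA3 and ONECUT1 probe 1. None of the 7 was called higher. Of all 13878 probes tested, 22.3% were called (12% lower and 10.3% higher), so that a call by itself was common in this comparison. The median difference over the 7 member probes was -0.19, beside 0.01 over all probes. In these bulk samples fewer cells with a transcript and less transcript per cell cannot be told apart.

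CEBPA, which restrains proliferation and drives metabolic genes in hepatocytes, had the largest difference of the member probes. Its level in experiments 1 to 4 was 12.79, 12.95, 12.45 and 12.65 with NC1, and 12.80, 13.03, 12.37 and 12.46 with NC2. With INTG it was 12.26, 12.53, 11.60 and 11.88. In each experiment both INTG wells were below all control wells, whereas the siRNA groups overlap when experiments are pooled, since the validation slide was lower throughout. INTG minus the mean of both controls was -0.62 (SE 0.0731, 95% interval -0.78 to -0.46, n = 4; limma, adjusted p = 0.000193), a 1.54-fold lower level with 65.0% of the control signal.

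Before normalisation the mean bead signal of CEBPA in experiments 1 to 4 was 7268, 8538, 6302.5 and 6849 with NC1 and 7422, 8693, 5246 and 4193 with NC2. With INTG it was 5238, 4728, 2170 and 2698, the lowest of the 3 siRNAs in each experiment. These signals are not corrected for array brightness. In experiments 2 to 4 the INTG arrays were dimmer than the controls, at ratios of 0.798, 0.738 and 0.819. FOXA1, which did not pass the test, was also lowest with INTG there before normalisation (1771, 1083 and 1151), though not in experiment 1. The size of the fall is therefore not read from these signals.

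Each control alone gave a similar value for CEBPA, -0.64 against NC1 (adjusted p = 0.00053) and -0.60 against NC2 (adjusted p = 0.000941, both limma). Against NC1 alone 10.2% of all probes were called lower, and against NC2 alone 9.14%. By experiment the difference was -0.54, -0.46, -0.82 and -0.67. Within the discovery slide it was -0.50 (limma, adjusted p = 0.0156) and within the validation slide -0.74 (adjusted p = 0.0176). CEBPA ranked 311 from the lowest of the 13878 probes by difference and 235 by p-value.

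FOXA3, a forkhead factor of glucose metabolism genes in the adult liver, was lower by a smaller step. Its levels were 11.01, 10.97, 11.22 and 11.41 with NC1 and 11.00, 11.02, 11.26 and 11.30 with NC2 over experiments 1 to 4. With INTG they were 10.55, 10.58, 10.85 and 11.20, in each experiment with both wells below all control wells. In experiment 4 the groups lay closest, and the wells of INTG in experiment 3 were farther apart than those of the controls. The difference was -0.36 (SE 0.0673, 95% interval -0.50 to -0.21, n = 4; limma, adjusted p = 0.00381), 1.28-fold lower.

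FOXA3 differed by -0.46, -0.42, -0.39 and -0.16 in experiments 1 to 4. It passed against NC1 (-0.36, limma, adjusted p = 0.00932) and against NC2 (-0.35, adjusted p = 0.012). It passed within the discovery slide (-0.44, limma, adjusted p = 0.0241) and not within the validation slide (-0.27, adjusted p = 0.185). With the log2 mean signal of each array as a covariate the difference was -0.35 and missed the threshold (adjusted p = 0.105).

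ONECUT1, whose product regulates FOXA2 and HNF4A in rodents, had 2 probes that gave different calls. Probe 1 read 8.20, 7.93, 6.17 and 6.23 with NC1 and 8.08, 7.80, 6.11 and 6.57 with NC2. With INTG it read 7.65, 7.61, 5.45 and 5.97. Both INTG wells were below all control wells in all 4 experiments, although the validation values of every siRNA lay below all discovery values. The difference was -0.47 (SE 0.0885, 95% interval -0.66 to -0.27, n = 4; limma, adjusted p = 0.0039), 1.38-fold lower, with -0.49, -0.25, -0.69 and -0.43 by experiment. In experiment 3 neither INTG well was detected, so the value of -0.69 is set against signals not well above background. Without experiment 3 the difference was -0.39 (limma, adjusted p = 0.0235).

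ONECUT1 probe 1 passed against each control (-0.46 against NC1 and -0.47 against NC2; limma, adjusted p = 0.0104 and 0.0112). It missed the threshold within each slide alone, at -0.37 (limma, adjusted p = 0.0543) in discovery and -0.56 (adjusted p = 0.0614) in validation. Without background correction the value was -0.25 and still passed (adjusted p = 0.00167). ONECUT1 probe 2 read 7.29, 7.30, 6.40 and 6.51 with NC1, 7.20, 7.20, 5.94 and 6.51 with NC2, and 6.82, 7.44, 6.04 and 6.11 with INTG. Probe 2 had INTG wells below all control wells in 2 of 4 experiments, and its INTG mean was the highest of the 3 in experiment 2. Its difference was -0.19 (SE 0.102, 95% interval -0.42 to 0.03; limma, adjusted p = 0.204), an interval that overlaps that of probe 1.

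**Figure D2:**
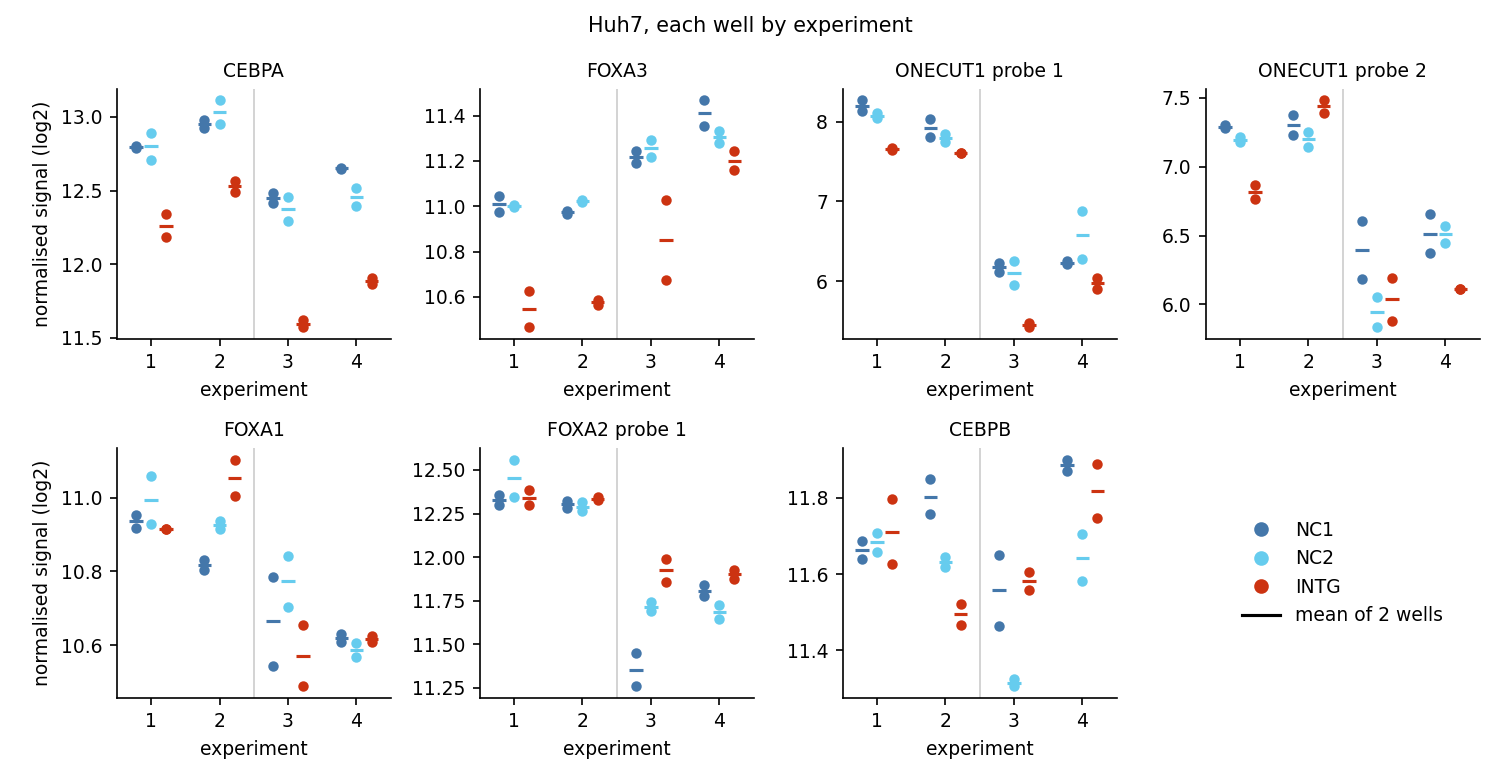
Normalised signal (log2) of the 7 member probes tested in Huh7, with 1 point per well, dashes at the mean of 2 wells and a grey line between the discovery and validation slides. Each panel has its own axis, none of which starts at 0. In CEBPA, FOXA3 and ONECUT1 probe 1 the INTG wells lie below all control wells of their experiment in all 4 experiments.

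Complete separation of the wells in all 4 experiments was seen for these 3 member probes and for 4.28% of all probes tested in Huh7, described without a test. INTG means below both control means in all 4 experiments were found for the same 3 member probes and for 12% of all probes. INTG lower than each control singly at an adjusted p under 0.05 was also limited, among member probes, to these 3, beside 7.1% of all probes.

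The other forkhead factors and CEBPB did not pass the test in Huh7. FOXA1, listed above for the controls, read 10.92, 11.05, 10.57 and 10.62 with INTG. It lay below both controls in experiments 1 and 3, above both in experiment 2 and between them in experiment 4. The difference was -0.00 (SE 0.0674, 95% interval -0.15 to 0.15; limma, adjusted p = 0.999), and by experiment -0.05, 0.18, -0.15 and 0.01. The interval for FOXA1 leaves out a change as large as the one measured for FOXA3, though a difference between the members themselves was not tested.

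FOXA2 probe 1 read 12.33, 12.30, 11.36 and 11.81 with NC1, 12.45, 12.29, 11.72 and 11.69 with NC2, and 12.34, 12.34, 11.92 and 11.90 with INTG. INTG was above both controls in experiments 2, 3 and 4 and between them in experiment 1, where the groups overlapped. The difference was 0.13 (SE 0.0873, 95% interval -0.06 to 0.33; limma, adjusted p = 0.301), and it was -0.07 with scale in place of quantile normalisation. By experiment it was -0.05, 0.04, 0.39 and 0.15.

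CEBPB, the C/EBP factor induced in the acute phase response and in liver regeneration, read 11.66, 11.80, 11.56 and 11.88 with NC1 and 11.68, 11.63, 11.32 and 11.64 with NC2. INTG gave 11.71, 11.49, 11.58 and 11.82. INTG lay above both controls in experiment 1, below both in experiment 2, above both in experiment 3 and between them in experiment 4. The difference was 0.00 (SE 0.074, 95% interval -0.16 to 0.17; limma, adjusted p = 0.977). Under scale normalisation the values of FOXA1 and CEBPB were -0.20 and -0.20 (limma, adjusted p = 0.15 and 0.163), beside a median of -0.13 over all probes.

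The difference between NC1 and NC2 gives the background of the design. None of the 7 member probes passed for NC2 minus NC1 in Huh7, where limma called 66 of 13878 probes (0.476%) and 1343 had an unadjusted p under 0.05. The widest member values were -0.16 for ONECUT1 probe 2 (SE 0.118; limma, adjusted p = 0.713) and -0.16 for CEBPB (SE 0.0854; adjusted p = 0.595). CEBPA gave -0.05, FOXA3 -0.01 and ONECUT1 probe 1 0.01 in the same comparison. For the 3 probes that fell, the mean over experiments with INTG lay farther from each control mean than the control means lay from each other. In experiment 4 this did not hold for ONECUT1 probe 1, where NC2 minus NC1 was 0.35 and INTG minus NC1 -0.26. Nor did it hold there for FOXA3, with -0.11 for NC2 minus NC1 and -0.10 for INTG minus NC2.

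**Figure D3:**
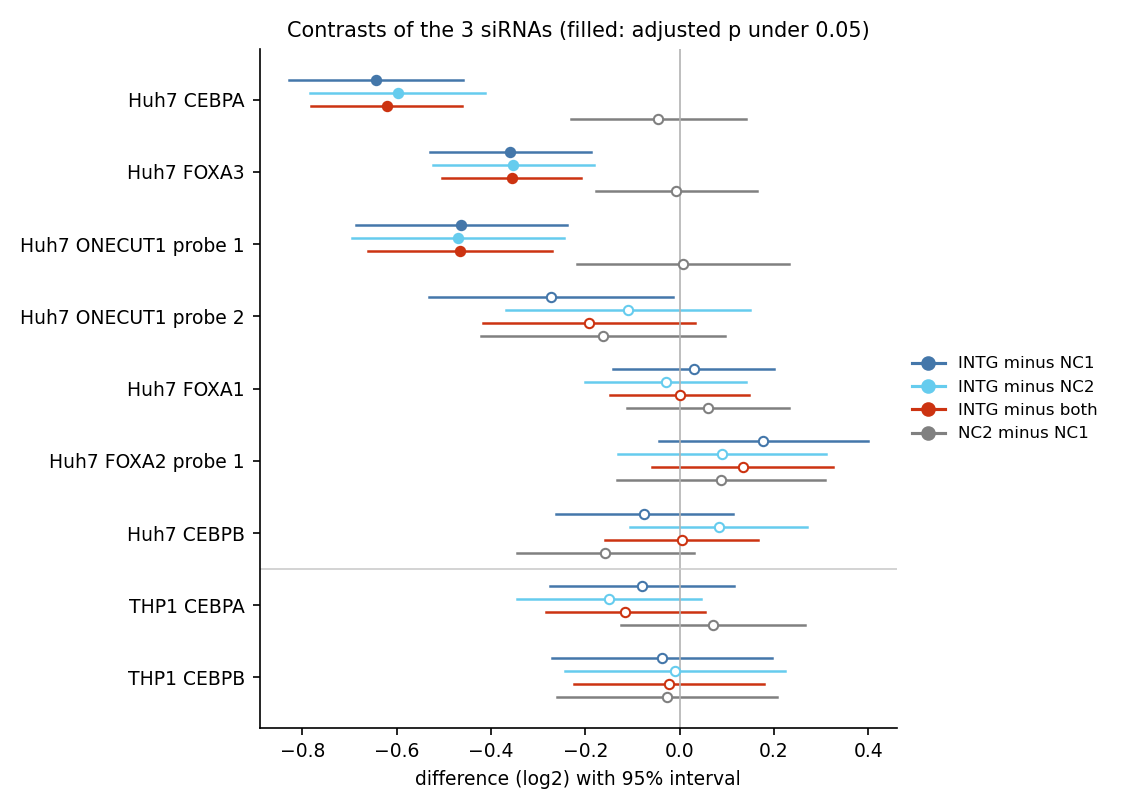
Differences between siRNAs (log2, x axis) for each member probe tested, with 95% intervals from the limma fit, 4 experiments per siRNA, and filled points where the adjusted p was under 0.05. Filled points appear for Huh7 CEBPA, FOXA3 and ONECUT1 probe 1 in the 3 contrasts with INTG, and every NC2 minus NC1 interval includes 0.

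Array brightness moved with the siRNA in part of the Huh7 experiments. The mean signal of the INTG arrays over that of the control arrays was 1.02, 0.798, 0.738 and 0.819 in experiments 1 to 4. In experiment 1, where brightness was matched, CEBPA differed by -0.54, FOXA3 by -0.46 and ONECUT1 probe 1 by -0.49. In experiment 4, where NC2 arrays were about as dim as INTG arrays (ratio 0.963), INTG minus NC2 was -0.57 for CEBPA and -0.10 for FOXA3. With brightness as a covariate CEBPA was -0.51 (limma, adjusted p = 0.0237) and ONECUT1 probe 1 was -0.57 (adjusted p = 0.0395), when 3.83% of all probes passed.

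**Figure D4:**
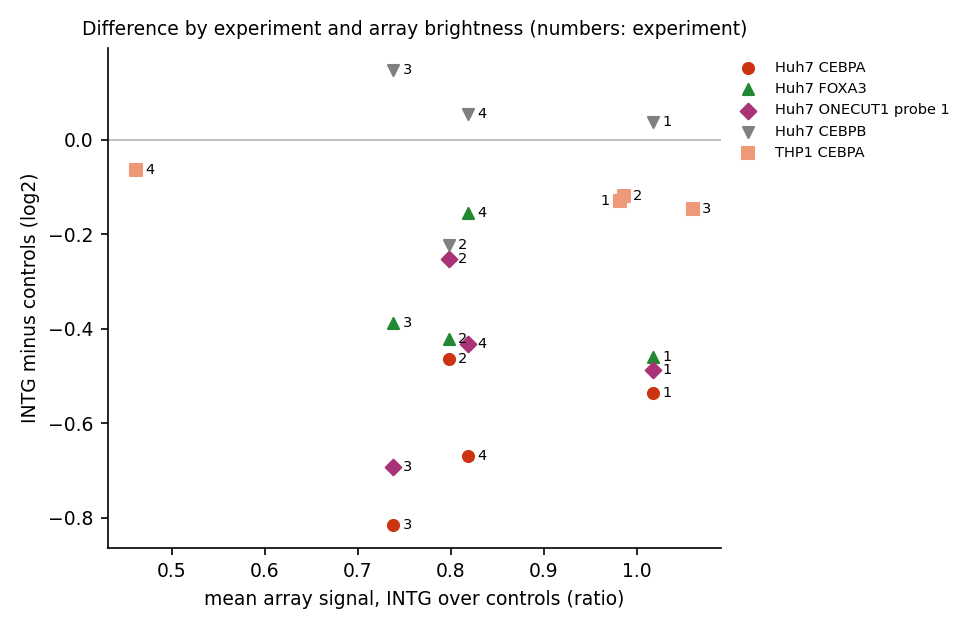
INTG minus controls (log2, y axis) against the ratio of mean array signal, INTG over controls (x axis), with 1 point per experiment, the number giving the experiment. Huh7 experiment 1, at a ratio of 1.02, holds values of -0.54, -0.46 and -0.49 for CEBPA, FOXA3 and ONECUT1 probe 1, and THP1 experiment 4 stands apart at 0.462.

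In THP1 neither member tested passed. CEBPA read 12.43, 12.71, 12.02 and 12.24 with NC1, 12.52, 12.83, 12.30 and 12.03 with NC2, and 12.35, 12.65, 12.01 and 12.07 with INTG. INTG was the lowest of the 3 in experiments 1 to 3, by little against NC1, and lay between the controls in experiment 4. The difference was -0.12 (SE 0.0733, 95% interval -0.28 to 0.05; limma, adjusted p = 0.454), with a median of -0.07 over all 13524 probes tested in THP1. Limma called 6 of those probes (0.0444%), and 1612 had an unadjusted p under 0.05.

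CEBPB in THP1 read 9.83, 10.09, 10.03 and 10.33 with NC1, 9.80, 10.05, 10.04 and 10.29 with NC2, and 9.82, 10.27, 10.10 and 9.95 with INTG. INTG lay between the controls in experiment 1, above both in experiments 2 and 3, and below both in the dim experiment 4. The difference was -0.02 (SE 0.0877; limma, adjusted p = 0.897), and 0.09 without the 2 dim arrays (adjusted p = 0.606). NC2 minus NC1 was 0.07 for CEBPA and -0.03 for CEBPB in THP1, where 0% of probes passed (0 of 13524 by limma, 237 at an unadjusted p under 0.05).

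The INTG difference of CEBPA was further below 0 in Huh7 than in THP1, a call that 8 of 18 alternative settings lost. The INTG difference in Huh7 minus that in THP1 was -0.51 (SE 0.0989, 95% interval -0.72 to -0.29; limma, adjusted p = 0.0141), and the value was negative in all 4 experiments of both lines, from -0.82 to -0.46 in Huh7 and from -0.15 to -0.06 in THP1. Of 11542 probes tested in both lines 2.6% passed, 1.55% with the lower value in Huh7. The call was lost in the discovery phase alone (-0.38, limma, adjusted p = 0.141), in the validation phase alone (-0.64, 0.33) and when slide replaced experiment as the block (-0.51, 0.176). It was also lost without experiment 1 (-0.54, limma, adjusted p = 0.12), without experiment 2 (-0.56, 0.0843) and without experiment 3 (-0.45, 0.136), and stayed without experiment 4 (-0.47, 0.0345) and without the 2 dim THP1 arrays (-0.49, 0.0153). Under scale normalisation the difference was -0.04 (adjusted p = 0.957), with CEBPA at -0.75 and the median of all probes at -0.44 in THP1. CEBPB differed between the lines by 0.03 (SE 0.112; limma, adjusted p = 0.909).

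Genes near the members in the network were counted by list, with 1 probe per gene, the one with the highest mean signal in the line. No gene of the lists passed in THP1, where limma called 0.0444% of all probes, so nothing is read from this. Tested there were 11 relatives of the members, 6 other liver factors and 2 targets of liver factors such as HNF4A and FOXA. The others tested were 3 C/EBP targets in liver, 3 genes of the FXR pathway and 9 myeloid C/EBP targets. The counts below are for INTG minus both controls in Huh7, where the median over all probes was 0.01, 12% of all probes were called lower and 10.3% higher. They describe the lists, and whether a list stood apart from other genes was not tested.

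Of 10 relatives of the members tested in Huh7, 2 fell and 0 rose, with a list median of -0.09. They were FOXM1, a forkhead factor of dividing cells, at -0.32 (SE 0.0782; limma, adjusted p = 0.013), and FOXO3, a forkhead factor of the insulin pathway, at -0.24 (SE 0.0678; adjusted p = 0.0274). CEBPD was at -0.19 and CEBPG at 0.11, and neither passed (adjusted p = 0.168 and 0.256). Of 12 other liver factors 1 fell and 0 rose, with a median of -0.08. That gene was GATA4, a zinc finger factor of endoderm, at -0.55 (SE 0.126; limma, adjusted p = 0.00987). NR5A2 was counted by its brighter probe, which did not pass (-0.20; limma, adjusted p = 0.0828). Its dimmer probe was at -0.25 and passed (adjusted p = 0.0189). Beside the 12% of all probes called lower, nothing is read from these counts. Leaving out 1 experiment gave 0 to 1 falls in either list, when 12.7% to 18% of all probes were called in either direction.

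Of 20 targets of liver factors such as HNF4A and FOXA tested, 6 fell and 1 rose, with a median of -0.10, beside 12% of all probes called lower and 10.3% higher. The tryptophan dioxygenase gene TDO2 was at -1.21 (SE 0.213; limma, adjusted p = 0.00251). CPS1, the entry enzyme of the urea cycle, was at -0.59 (adjusted p = 0.0248), and the apolipoprotein gene APOC3 at -0.53 (adjusted p = 0.00812). TAT, tyrosine aminotransferase, rose by 0.53 (SE 0.0972; limma, adjusted p = 0.00334), at a mean level of 5.52 over the Huh7 arrays, near background. Albumin (ALB) was at 0.05 (adjusted p = 0.618), and of the 8 hepatocyte markers 1 fell, APOB at -0.28. The falls in this list numbered 3 to 4 when 1 experiment was left out, 0 with brightness as a covariate and 8 under scale normalisation. In those settings limma called 12.7% to 18%, 3.83% and 24.3% of all probes in either direction. Under scale normalisation 90.4% of the calls were falls.

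Of 11 liver genes known as C/EBP targets, 6 fell and 1 rose, with a list median of -0.34, beside the same 12% and 10.3% of all probes. SAA4, a constitutive serum amyloid of the liver, was at -1.07 (SE 0.0962; limma, adjusted p = 3.94e-05). HAMP, the iron hormone hepcidin, was at -0.68, haptoglobin (HP) at -0.58 and hemopexin (HPX) at -0.49 (adjusted p = 0.000176, 0.00112 and 0.000712). The NC2 minus NC1 difference of HAMP was 0.43 (adjusted p = 0.076). The gene that rose was A2M, at 0.41 (SE 0.0952; limma, adjusted p = 0.0109), a call that was lost with brightness as a covariate. The falls numbered 6 to 7 when 1 experiment was left out and 4 with brightness as a covariate. Of all probes, 12.7% to 18% and 3.83% were called in either direction in those settings. By their brightest probes the fibrinogen genes of the list, FGA and FGG, were at -0.15 and 0.02 and did not pass (adjusted p = 0.114 and 0.865). The dimmest of the 4 FGA probes tested was at -0.28 and passed (adjusted p = 0.0226).

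Of 10 genes of the FXR pathway 5 fell and 2 rose, with a list median of -0.20, beside 12% of all probes called lower and 10.3% called higher. FGFR4, the hepatocyte receptor for FGF19, was at -0.63 (SE 0.0572; limma, adjusted p = 4.18e-05). The subunits of the bile acid exporter moved apart, SLC51B to -0.58 (adjusted p = 0.000556) and SLC51A to 0.53 (adjusted p = 0.0131). FETUB, a secreted protease inhibitor, was at -0.45 (limma, adjusted p = 0.00929). The mean levels of SLC51A and FETUB over the Huh7 arrays were 5.55 and 5.12, near background, beside 7.11 for SLC51B. With brightness as a covariate 2 genes of this list fell and 0 rose, when 3.83% of all probes were called in either direction. Of 3 myeloid C/EBP targets tested in Huh7, CD14, the lipopolysaccharide co-receptor, was at -0.76 and the lysozyme gene LYZ at 0.55 (limma, adjusted p = 9.74e-05 and 0.000368).

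**Figure D5:**
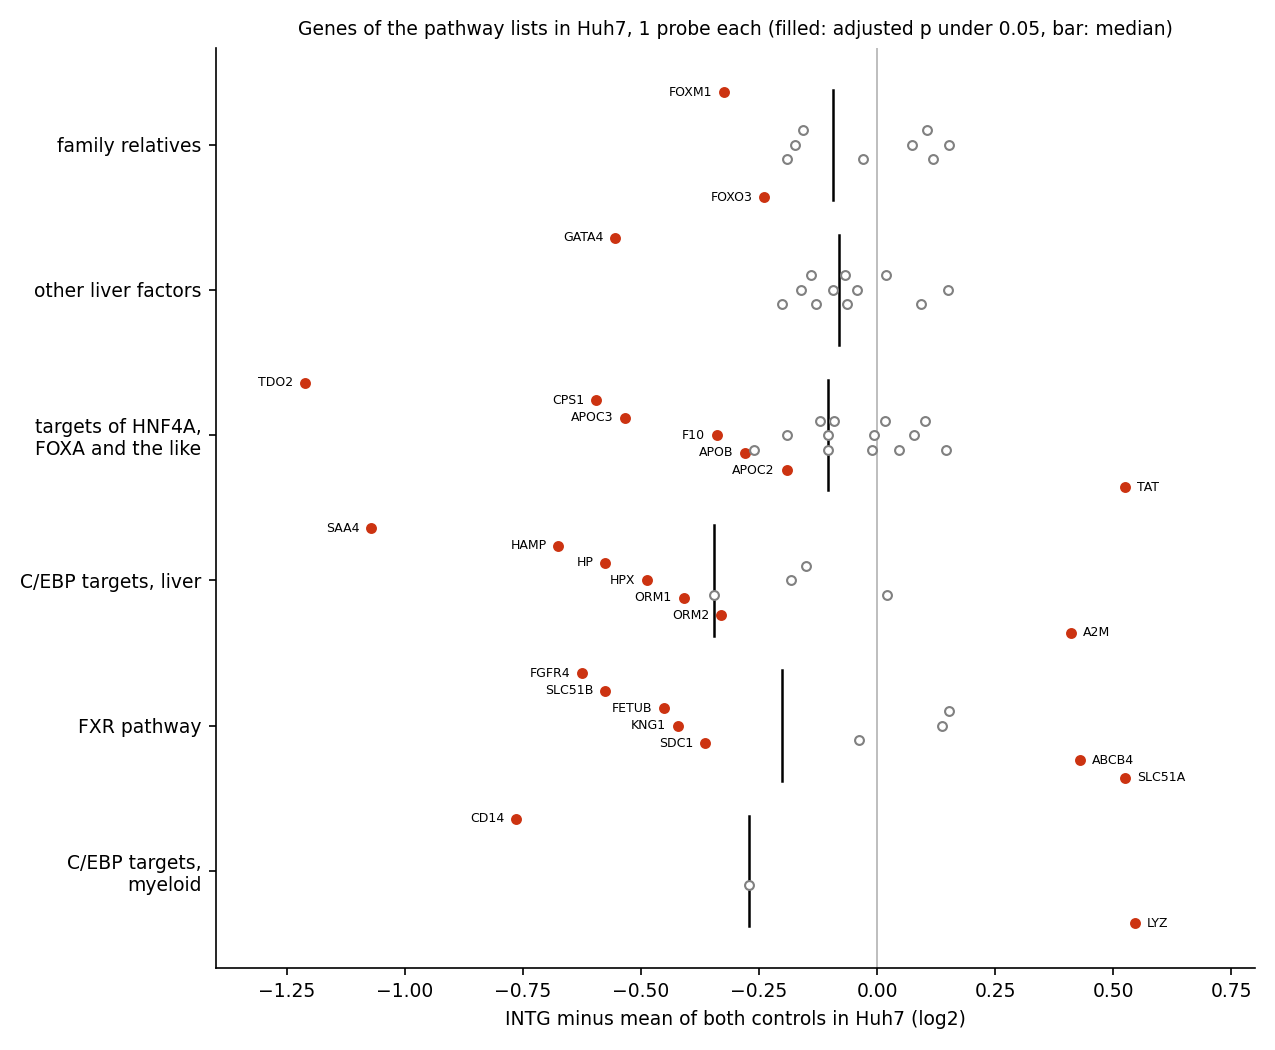
INTG minus both controls in Huh7 (log2, x axis) for the tested genes of 6 lists, with 1 point per gene, filled and named where the adjusted p was under 0.05, and a bar at the list median. The C/EBP targets in liver have 6 filled points below 0 and 1 above, and the FXR pathway 5 below and 2 above.

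Likeness between probes was measured across the 12 experiment means of the 3 siRNAs in Huh7, once the mean of each experiment was removed. Of these points 4 hold the INTG difference for which CEBPA, FOXA3 and ONECUT1 probe 1 were singled out, so that their r values restate it. Pearson's r was 0.901 for CEBPA and FOXA3, 0.880 for CEBPA and ONECUT1 probe 1 and 0.801 for FOXA3 and ONECUT1 probe 1. The 2 ONECUT1 probes gave 0.597, and FOXA1 and CEBPB -0.747. The points share arrays, and no test was made. By the same measure the genes most like CEBPA were PKIA (r = 0.996) and SEH1L (r = 0.994), which differed with INTG by -1.28 and -1.06. Nearest to FOXA3 were UCKL1 (0.976) and INAVA (0.975), and nearest to ONECUT1 probe 1 were AFF3 (0.980) and CASP9 (0.969). FOXA1 lay nearest to MAPRE1 (0.978) and PLS1 (0.958), FOXA2 probe 1 to ATXN2 (0.961) and CDS2 (0.949), and CEBPB to ZBTB3 (0.975) and FBXO10 (0.957).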

How the data were processed

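Total RNA from 48 wells was hybridised to Illumina bead arrays. Per the file headers, the deposited intensity of a probe is an average signal, taken here as its mean bead signal, and a detection p-value stands beside it. That p-value was taken to be set against the array's negative controls, which the headers do not state. The deposited intensities had been neither background-subtracted nor normalised, as far as they show. A second deposited table holds the authors' processed intensity values, which served as an alternative. Lumi and limma are named without versions in the submitters' processing notes, and how they were applied is not given in the sources.

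Of 48803 listed probes, 8 were blank and left out. Symbols came from the platform annotation (28092 probes with 1 symbol, 13 with several and 20690 with none), and those with several named no gene. The neqc function (limma 3.58.1, R 4.3.3) applied normexp background correction based on detection p-values, an offset of 16, quantile normalisation of the 48 arrays and the log2. Testing in a line required a detection p under 0.01 on at least 8 of its 24 arrays. Duplicate wells were averaged (n = 4 experiments per siRNA). The limma model (lmFit, eBayes) of a line held terms for siRNA and for experiment, leaving 6 residual degrees of freedom, with Benjamini-Hochberg adjustment over all probes tested and a threshold of 0.05. The fits were tested on simulated data that held no experiment or slide effect, so this check does not cover the choice of block. The experiment was the block because the series' design text ties experiment numbers to culture passages. Same-numbered means deviated together from their groups (r from 0.458 to 0.918). These deviations include the shift between slides, so r cannot tell experiment from slide as the block.

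Precision is limited by the number of experiments, 4 per siRNA in each line. Within each experiment the arrays followed the order NC1, NC2, INTG on the slide. The arrangement differed between the phases, so some positions held INTG in 1 phase and NC2 in the other. A position effect was not tested. Members and lists were chosen with earlier results of these data known. Every member probe is named, and of each list up to 4 called genes with the largest difference. APOB, ALB, CEBPD, CEBPG, NR5A2, A2M, FGA and FGG are named besides, as markers or as further members of a list. The list of liver factor targets also includes those of a factor that is not reported here. Likeness names the 2 genes with the highest r. Alternatives covered the block, wells, background correction, normalisation, the detection filter, the authors' values, array brightness, array weights, each phase and each experiment left out. A floor of 1 with no offset for the authors' values, and the list counts under each alternative, were added after seeing the data.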

Additional observations from a re-analysis of the deposited data

Results flagged for a closer look

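With 4 experiments per set, a value far from the others was looked for in 45 sets, of which chance alone picks about 1 in 20. The NC2 level of CEBPB in Huh7 stood out, since experiment 3 (11.32) lay apart from the other 3 (11.63 to 11.68), with a gap of 0.862 of the whole range. NC2 minus NC1 of ONECUT1 probe 1 in Huh7 stood out through experiment 4, at 0.35 beside -0.07 to -0.13 in the others, with a gap of 0.874 of the range. The same comparison of CEBPA ran opposite ways in the phases, at 0.01 and 0.08 in discovery and -0.07 and -0.20 in validation, a mean difference of -0.18 that was not tested. The INTG difference of CEBPA was lower in Huh7 than in THP1 by -0.51, which passed the test of the difference itself (limma, adjusted p = 0.0141). The call was lost in 8 of 18 alternative settings, among them the slide as the only block (adjusted p = 0.176), each phase alone (0.141 and 0.33), 3 of the 4 fits that left out an experiment (0.0843 to 0.136) and scale normalisation (-0.04, 0.957).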

How the results depend on the processing

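Of 107 comparisons of a member count with its alternative over 18 settings, 97 stayed within 1.5 times and 10 moved. This total does not measure stability, since it includes comparisons that held a count of 0 in every setting. Those were NC2 minus NC1 in both lines and INTG in THP1. Also included are the levels between lines, where the filter fixed the direction for the FOXA and ONECUT1 probes. All moves lay in the Huh7 INTG count and in the difference between lines. The Huh7 count of 3 member probes was 0 with no replicate block and 1 in the validation phase alone, and 3 whenever 1 experiment was left out. In the discovery phase alone ONECUT1 probe 1 lost its call (limma, adjusted p = 0.0543). With brightness as a covariate FOXA3 lost its call (limma, adjusted p = 0.105). Both of these counts are among those within 1.5 times. The count of 1 for the difference between lines was 0 with no replicate block, with the slide as the only block, under scale normalisation and in each phase alone, and 0 to 1 with 1 experiment left out. No called value changed sign. Sign changes of values that passed neither way were not counted as reversals. Without the experiment block the adjusted p was 0.134 for CEBPA, 0.313 for FOXA3 and 0.916 for ONECUT1 probe 1 in Huh7 and 1 for the difference of CEBPA between lines (limma). CEBPA in Huh7 ran from -0.80 to -0.50 over 17 alternatives and lost its call in that 1 alone. ONECUT1 probe 2 passed under scale normalisation only (-0.30, limma, adjusted p = 0.0328). Scale normalisation moved the Huh7 median to -0.13 and the share of falls among calls from 53.7% to 90.4%. Relative to that median CEBPA was at -0.67, FOXA3 at -0.42 and ONECUT1 probe 1 at -0.39. Over all probes the Huh7 calls numbered 3089, but 333 with no replicate block, 1132 with the slide as block, 532 with brightness as a covariate, 1217 and 817 in discovery and validation alone, and 1766 to 2492 with 1 experiment left out. With no replicate block 0 to 1 genes of each list fell in Huh7. In discovery and validation alone, 4 and 3 of the C/EBP targets in liver, 3 and 2 of the targets of HNF4A, FOXA and like factors and 2 and 2 of the FXR pathway fell. Removing the 2 dim arrays applies to THP1 and the difference between lines, and the block choices do not apply to the level between lines. Signals near background limit the values of ONECUT1, TAT, SLC51A and FETUB. Levels about as low as those of ONECUT1 were also found for TDO2, CD14, HP and GATA4. Their means over the Huh7 arrays were 6.53, 6.76, 6.80 and 6.85, beside control means of 7.14 and 6.79 for the ONECUT1 probes. The cause of the changes between settings was not tested.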
